A study of Mus musculus with 18 samples.

Results

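Collagen genes encode the chains of the triple-helical proteins that make up most of the extracellular matrix. They were taken as the protein-coding genes on chromosomes 1 to 19 of GENCODE vM21 (mouse genome mm10) whose symbol has the form Col, a number, a and a number, which gave 42 of 20807 genes. The study profiled lamin B1, a protein of the nuclear lamina, and the histone mark H3K9me3 by ChIP-Seq in wild-type C57BL/6 livers. Young males (3 months) and old males (21 months) gave 2 replicates per antibody. The transcription factor Foxa2 was profiled at 12 weeks in C57BL/6 livers of Zmpste24 mutants (KO), which lack the protease that matures prelamin A in every tissue, and of their wild-type littermates (WT), with 3 replicates per genotype. The replicates of each condition were merged before regions were called, and the deposited lists hold only the positions of the called regions. No spread between animals can therefore be given, no test between ages or genotypes could be made, and all differences below are differences between 2 lists. Depth is unknown from the lists. According to the study, the merged reads of old livers were fewer than those of young livers for lamin B1 and more for H3K9me3, and the part of depth in the counts below was not tested.

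Fibrillar collagens give tissue its tensile strength, type IV collagens form the sheet of the basement membrane, and type VI collagens form beaded filaments that link cells to the matrix around them. In liver most fibrillar collagen is made by stellate cells, while hepatocytes supply most of the chromatin of the whole organ. Chromatin at the nuclear lamina is mostly silent, and H3K9me3 marks heterochromatin. The liver was assayed whole, so a region that was present in fewer cells and a region that was weaker in each cell cannot be told apart, and neither the cell type nor the genotype of a sample can be checked in lists of positions.

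The start sites of most collagen genes lay in a lamin B1 domain in old livers and outside one in young livers. Of the 42 start sites, 10 (23.8%) lay in a domain in young livers, against 38.0% of all protein-coding genes. In old livers the number was 31 (73.8%), against 65.7% of all genes. A start site in a domain in old livers only was found for 23 collagen genes (54.8%) and 32.2% of all genes, and a start site in a domain at both ages for 8 (19%) and 33.5%. Col10a1 and Col19a1 had their start site in a domain in young livers only (4.76%, against 4.49% of all genes). The collagen genes thus had a smaller share in domains than all genes in young livers and a larger one in old livers, as drawn in the plot of start-site shares. Neighbouring genes share domains and are not independent. The 42 genes form 36 loci when genes up to 50 kb apart are joined, and 11 genes lie in the 5 loci that hold more than 1 of them.

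**Figure D1:**
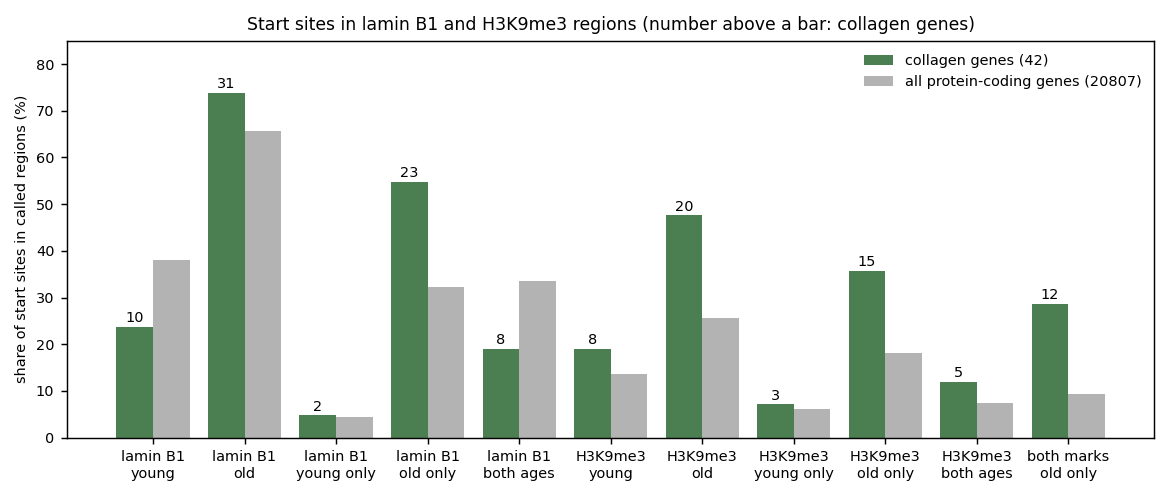
Share of start sites (%, vertical axis) in called lamin B1 and H3K9me3 regions for the 42 collagen genes (green) and all 20807 protein-coding genes (grey); the number above each green bar is the number of collagen genes. The green bar is higher than the grey one in old livers for both marks, and lower for lamin B1 in young livers. Bars carry no error because each list was called on merged replicates.

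All 6 genes of the beaded filaments and all 4 genes of the basement membrane network had their start site in a lamin B1 domain in old livers, and none had it there in young livers. Over all genes the shares were 65.7% in old and 38.0% in young livers. The beaded-filament genes are Col6a1, Col6a2, Col6a3, Col6a4, Col6a5 and Col6a6, which encode the chains of type VI collagen. Their bodies were covered from end to end in old livers. In young livers 5 of them were at 0, while the domain at chr9:105380001-105820000 covered 94.2% of the body of Col6a6. That domain ended inside the gene, 8.16 kb from its start site. The basement membrane genes are 2 head-to-head pairs, whose start sites lie 21 bp (Col4a1 and Col4a2) and 72 bp (Col4a3 and Col4a4) apart. In young livers the nearest domain was 1727 kb from the start of the first pair and 2103 kb from that of the second. In old livers the domain at chr8:10360001-13800000 held Col4a1 and Col4a2 whole. The domain at chr1:82570001-82880000 held all of Col4a3 but only 12.2% of Col4a4, the part at its 5′ end. Because the promoters of a pair fall within or next to the same window of 10 kb, the genes of a pair do not count as separate observations.

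Among the 11 fibrillar collagen genes, start sites in a domain numbered 1 in young and 6 in old livers. Of all genes, 38.0% had theirs in a domain in young and 65.7% in old livers. Col1a1, which encodes the main chain of type I collagen, lay outside any young domain by 246 kb and was covered along its whole body by the old domain at chr11:94830001-95710000. Col1a2, which encodes its partner chain in the same trimer, lay in no lamin B1 or H3K9me3 region at either age. Its start site was 295 kb from the nearest lamin B1 domain in young and 195 kb in old livers. Col3a1 (type III collagen) and its neighbour Col5a2 were also outside lamin B1 domains at both ages, at 388 and 197 kb in young livers and at 1942 and 2133 kb in old livers. The genes of the main interstitial collagens of liver were therefore split, with Col1a1 in an old domain and Col1a2 and Col3a1 in none. The other fibrillar genes with a start site in a domain in old livers only were Col2a1 (the collagen of cartilage), Col5a1 and Col11a2 (chains that set the width of fibrils) and Col27a1, each covered whole in old livers and at 0 in young livers. Col5a3 lay in a domain at both ages, and its covered share was 55.7% in young and 100% in old livers.

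The remaining classes were divided, beside shares over all genes of 38.0% in young and 65.7% in old livers. Of 9 FACIT genes, whose products sit on the surface of fibrils or resemble those that do, 4 start sites lay in domains in young and 6 in old livers, with Col9a2, Col16a1 and Col20a1 there in old livers only. Both multiplexin genes, Col15a1 and Col18a1 (the source of endostatin), were at 0 in young livers and covered whole in old livers, as was Col7a1, which encodes the anchoring fibril of skin. Of the 4 transmembrane collagens, Col13a1 and Col23a1 had a start site in a domain in old livers only, and Col17a1 and Col25a1 at both ages. The hexagonal-network genes went the other way, with 2 start sites in domains in young livers (Col8a2 and Col10a1) and 1 in old livers (Col8a2).

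**Figure D2:**
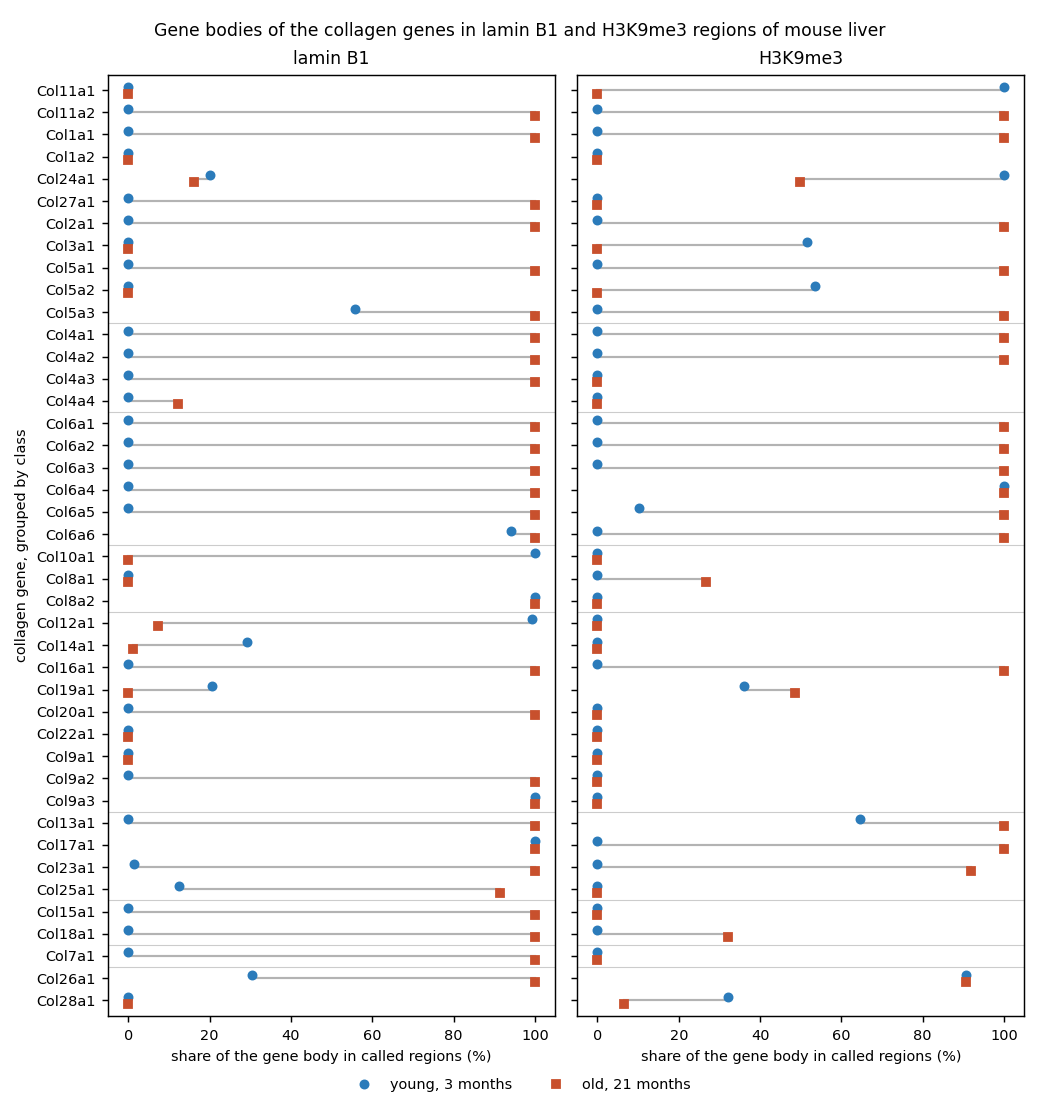
Share of each collagen gene body (%, horizontal axis) inside called lamin B1 domains (left) and H3K9me3 regions (right) in young (blue circles) and old (orange squares) livers, 1 line per gene, grouped by class. For lamin B1 20 genes go from 0 in young to 100% in old livers, and for H3K9me3 13 genes do; 5 genes for each mark have a smaller share in old livers.

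Counted over gene bodies, lamin B1 domains touched 13 collagen genes in young livers (31.0%, against 40.9% of all genes) and 32 in old livers (76.2%, against 68.3%). The covered share of the body was larger in old livers for 26 genes, equal for 11 and smaller for 5, whereas 35.8% of all genes had a larger share in old livers and 6.60% a smaller one. In young livers 29 genes were at 0, 9 were covered in part and 4 were at 100%. In old livers 10 were at 0, 5 were covered in part and 27 were at 100%. Of all genes, 34.6% were at 100% in young and 62.4% in old livers. Of all base pairs in the 42 gene bodies, 13.8% lay in young and 57.3% in old domains, against 28.0% and 52.5% over all genes. Collagen genes are long, with a median of 111 kb against 17.6 kb, and a long gene is more easily touched. Among the 21 collagen genes at or above that median and the 2068 protein-coding genes of at least that length, start sites lay in a young domain for 5 (23.8%) against 27.2%, in an old domain for 14 (66.7%) against 52.6%, and in an old domain only for 10 (47.6%) against 33.1%. Bodies were touched for 8 (38.1%) against 36.6% in young and 15 (71.4%) against 62.2% in old livers. Beside genes of similar length, the share of collagen genes was thus close to the background in young livers and above it in old livers.

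The 5 genes that were less covered by lamin B1 in old livers were Col10a1, Col12a1, Col14a1, Col19a1 and Col24a1. Col10a1, the collagen of growth-plate cartilage, was covered whole in young livers and at 0 in old livers, where the nearest domain was 2530 kb away. Col12a1 and Col14a1 encode FACIT collagens of connective tissue. The covered share of Col12a1 was 99.2% in young and 7.4% in old livers, where a domain of 60 kb held only its 5′ end. Col14a1 stood at 29.2% and 1.1%, Col19a1 at 20.7% and 0, and Col24a1 at 20% and 16.2%. The GC content of their gene bodies was 43.2%, 39.5%, 41.6%, 39.6% and 40.5% in the order of first mention, against a median of 47.9% over all 42. Low values were not particular to these 5 genes. The 9 collagen genes with a start site in no domain at either age had a median of 39.8%. Col25a1 (41.3%) and Col4a3 (41.6%) were covered more in old livers.

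Old domains were longer than young ones at collagen genes and at genes in general. The 13 young domains that touched a collagen gene had a median of 290 kb and ranged from 140 to 1060 kb, and each touched 1 gene. The 26 old domains had a median of 1370 kb and ranged from 60 to 7440 kb. The median over the whole young list was 200 kb and over the whole old list 340 kb, but a long domain is more likely to touch a gene, so these values are no measure of the collagen genes. Counted per start site in a domain, the median length of that domain was 225 kb for collagen genes and 440 kb for all genes in young livers, and 1470 and 1170 kb in old livers. The longest, chr2:26780001-34220000, held Col5a1 together with 143 protein-coding start sites in all. Of these 26 domains, 5 touched more than 1 collagen gene and together held 12 of them, among them chr9:105520001-106810000 with Col6a4, Col6a5 and Col6a6, and chr10:76110001-77750000 with Col6a1, Col6a2 and Col18a1. When only domains of at most 1 Mb were used, a setting chosen after the data were seen, start sites in domains numbered 9 in young livers (against 33.0% of all genes) and 10 in old livers (against 30% of all genes), and touched bodies 12 (28.6%, against 35.9% of all genes) and 11 (26.2%, against 32.4%). Of the 23 genes with a start site in a domain in old livers only, 16 lay in domains over 1 Mb (69.6%, against 55.1% of such start sites over all genes) and 7 in shorter ones, namely Col1a1, Col4a3, Col4a4, Col7a1, Col9a2, Col23a1 and Col27a1. Without domains over 1 Mb, collagen genes thus had similar numbers at the ages compared, and all genes had a smaller share in old livers. The setting also leaves out long old domains at genes in a domain at both ages, such as Col5a3 and Col8a2. The part of domain length in the difference between the ages was not tested.

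**Figure D3:**
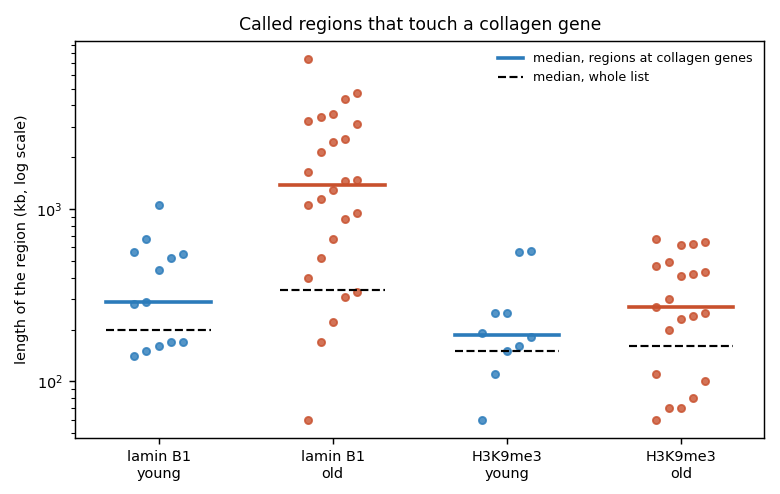
Length of each called region that touches a collagen gene (kb, log scale) in the lamin B1 and H3K9me3 lists of young and old livers; coloured lines are medians of the points and dashed lines medians of the whole list. The old lamin B1 domains at collagen genes have a median of 1370 kb and the young ones 290 kb; a long region is more likely to touch a gene, so the dashed lines are no background for the points.

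H3K9me3 regions held the start sites of 8 collagen genes in young livers (19%, against 13.6% of all genes) and of 20 in old livers (47.6%, against 25.7%). Of these, 15 were in a region in old livers only (35.7%, against 18.2%), 5 at both ages (11.9%, against 7.45%), and a further 3, Col5a2, Col11a1 and Col19a1, in young livers only (7.14%, against 6.19%). Regions touched the bodies of 10 genes in young livers (23.8%, against 17.4%) and of 23 in old livers (54.8%, against 31.2%). Among the genes of at least median length, start sites lay in a region for 6 of 21 (28.6%) against 21.4% in young livers, 9 (42.9%) against 28.3% in old livers and 6 (28.6%) against 15.7% in old livers only. Bodies of that length were touched for 7 (33.3%) against 37.1% in young and 12 (57.1%) against 45.4% in old livers. Unlike the lamin B1 domains, H3K9me3 regions covered a similar share of chromosomes 1 to 19 at the ages compared, 23.4% in young and 25% in old livers, where lamin B1 domains covered 18.9% and 37.8%.

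The type VI genes again stood together, with 2 of 6 start sites in H3K9me3 in young and 6 of 6 in old livers. Of all genes, 13.6% had theirs in H3K9me3 in young and 25.7% in old livers. Col6a4 was covered whole at both ages, and the share of Col6a5 was 10.2% in young and 100% in old livers. Col6a1, Col6a2, Col6a3 and Col6a6 were at 0 in young and at 100% in old livers. The old region chr9:105530001-106150000 held Col6a4, Col6a5 and Col6a6, and the old region chr10:76350001-76820000 held Col6a1 and Col6a2, so these 6 genes stand for 3 regions. Col4a1 and Col4a2 were covered whole by 1 old region, chr8:11040001-11450000, whereas Col4a3 and Col4a4 lay in no H3K9me3 region at either age, with the nearest 313 kb away in old livers.

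Of the fibrillar genes, Col1a1, Col2a1, Col5a1, Col5a3 and Col11a2 had a start site in H3K9me3 in old livers only, and each was at 0 in young and at 100% in old livers. Col16a1 and Col17a1, a FACIT and a transmembrane collagen of hemidesmosomes, had the same values. Col18a1 and Col8a1 (a collagen of vessel walls) were covered in part in old livers, at 32.0% and 26.6%, and at 0 in young livers. Col13a1 had its start site in a region at both ages, with 64.5% of the body covered in young and 100% in old livers. Col23a1 had 91.8% of its body in a region in old livers and none in young livers, but its start site lay 10.1 kb outside that region.

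The covered share of H3K9me3 was smaller in old livers for 5 genes, larger for 19 and equal for 18, against 8.74%, 23.4% and 67.9% of all genes. Col11a1, a fibrillar collagen of cartilage, was covered whole by the young region chr3:113990001-114550000 and lay 649 kb from the nearest old region. Col24a1 stood at 100% in young and 49.9% in old livers and Col28a1 at 32.1% and 6.5%, both with their start site in a region at both ages. Col3a1 and Col5a2, which adjoin each other on chromosome 1, stood at 51.6% and 53.5% in young livers and at 0 in old livers. One young region of 60 kb, chr1:45330001-45390000, touched both of these genes. All 5 genes have a GC content at or below 40.5%. The same holds for Col8a1 and Col19a1, which were covered more in old livers, and for Col12a1, in no H3K9me3 region at either age. Col19a1 differed between its start and its body, since the start site lay in a region in young livers only while the covered share was 36.1% in young and 48.6% in old livers.

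The start sites of 12 collagen genes lay in old livers only for lamin B1 and for H3K9me3 regions alike (28.6%, against 9.26% of all genes). These were Col1a1, Col2a1, Col4a1, Col4a2, Col5a1, Col6a1, Col6a2, Col6a3, Col6a6, Col11a2, Col16a1 and Col18a1. Col4a1 and Col4a2 shared an old lamin B1 domain, as did Col6a1, Col6a2 and Col18a1, so the 12 are not separate observations. Col5a3 and Col17a1 were in lamin B1 at both ages and in H3K9me3 in old livers only (7.39% of all genes). Col6a4, Col6a5 and Col13a1 were in H3K9me3 at both ages and in lamin B1 in old livers only (2.78% of all genes). A further 8 of the 42 genes had a start site in lamin B1 in old livers only and in H3K9me3 at neither age (19.3% of all genes). They were Col4a3, Col4a4, Col7a1, Col9a2, Col15a1, Col20a1, Col23a1 and Col27a1. Another 6 of 42 were in lamin B1 at both ages without H3K9me3 at the start site (22.4% of all genes): Col8a2, Col9a3, Col12a1, Col14a1, Col25a1 and Col26a1. Start sites outside regions of both kinds at both ages numbered 4 of 42 (23.2% of all genes), those of Col1a2, Col3a1, Col9a1 and Col22a1.

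Base composition moved with these groups. Collagen genes with a start site in lamin B1 in old livers only had a median GC content of the gene body of 50.8% (range 41.6% to 56.0%), against 39.8% (35.2% to 44.3%) for the 9 genes in no domain. The 8 genes in lamin B1 at both ages had a median of 50.5%, close to that of the genes in old livers only, as over all genes (48.2% and 48.0%). For H3K9me3 the medians were 51.1% for the 15 genes in old livers only and 36.2% for the 3 genes in young livers only. All protein-coding genes were ordered alike, with 40.5% in lamin B1 at neither age, and 50% in H3K9me3 in old livers only and 40.5% in young livers only. Among genes with a GC content at or above the median of all genes, 45.4%, the start site lay in lamin B1 in old livers only for 18 of 23 collagen genes (78.3%) and 45.0% of all genes, and below it for 5 of 19 (26.3%) and 19.3%. For regions of both kinds in old livers only the numbers were 11 of 23 (47.8%) against 15.8%, and 1 of 19 (5.26%) against 2.67%. The part of GC content in the difference between the ages was not tested.

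**Figure D4:**
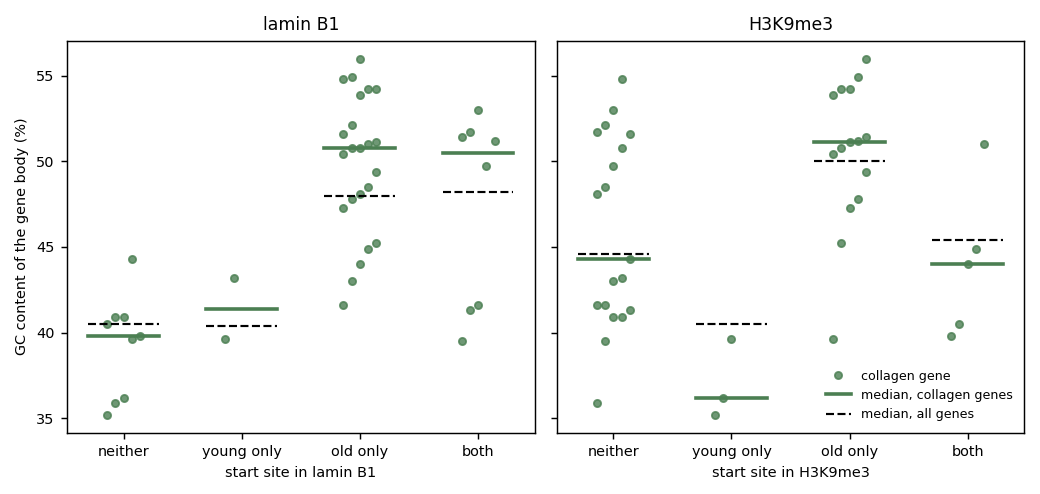
GC content of the gene body (%, vertical axis) of each collagen gene by whether its start site lay in lamin B1 (left) or H3K9me3 (right) in neither, young livers only, old livers only or both; green lines are medians of the collagen genes and dashed lines medians of all protein-coding genes. Genes in old livers only have medians of 50.8% and 51.1%, and genes in lamin B1 at both ages 50.5%.

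The proteins that build, cut and bind collagen are encoded by other genes, of which 55 were examined as a list. Their start sites lay in lamin B1 for 19 (34.5%, against 38.0% of all genes) in young and 37 (67.3%, against 65.7%) in old livers. In old livers only there were 18 (32.7%, against 32.2%), and in young livers only none (against 4.49%). The lamin B1 shares in old livers were thus near those of all genes. For H3K9me3 they numbered 5 (9.09%, against 13.6%) in young and 15 (27.3%, against 25.7%) in old livers. In old livers only there were 12 (21.8%, against 18.2%). Start sites in regions of both kinds in old livers only were found for 8 (14.5%, against 9.26%). These were Crtap and P3h1, which form the complex that 3-hydroxylates proline, Serpinh1 (the collagen chaperone HSP47), Adamts14 and Tll2 (which cut propeptides), Mmp2 (a gelatinase), Timp2 (an inhibitor of matrix proteases) and Fmod (the proteoglycan fibromodulin). P4ha1, P4ha2 and P4ha3, the catalytic subunits of prolyl 4-hydroxylase, lay in lamin B1 in old livers only and in H3K9me3 at neither age. The same held for 19.3% of all genes.

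Foxa2, a forkhead factor of hepatocytes, was called within 50 kb of the body of 15 collagen genes in WT livers (35.7%, against 32.0% of all genes) and of 18 in Zmpste24 KO livers (42.9%, against 40.2%). In both genotypes there were 9 (21.4%, against 20.2%), namely Col1a2, Col4a1, Col4a2, Col8a1, Col9a1, Col18a1, Col19a1, Col26a1 and Col27a1. A further 6 had sites in WT livers alone, 9 in KO livers alone and 18 in neither. The counts were near the background, and for the genes of at least median length they were 9 of 21 (42.9%) against 46.6% in WT and 13 (61.9%) against 65.0% in KO livers. In all, 22 WT and 26 KO sites lay within 50 kb of a collagen gene, or 2.58 and 3.05 sites per Mb, against 1.99 and 3.27 over chromosomes 1 to 19. The study thinned the mutant reads to the number of the controls before calling, so the lists are of like depth by its account.

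Of these sites, 5 in each genotype overlapped a site of the other (22.7% of the WT and 19.2% of the KO sites, against 27.3% and 16.8% of all sites). Col27a1 had 2 of them, 1 in its body and 1 lying 27.4 kb before its start, where Kif12 had the closest start site. Col18a1 had 1 inside its body. Col4a1 and Col4a2 had 1 each beyond their 3′ ends, where Irs2 and Rab20 had the closest start sites. All 5 positions lay in a lamin B1 domain in old livers and in none in young livers, and the site at Col4a1 also lay in an old H3K9me3 region. The sites at Col27a1 shared 1 old domain and those at Col4a1 and Col4a2 another, so the 5 are not separate observations. The share of all sites in a domain in old livers only was not counted. Over all 22 WT sites 17 lay in an old lamin B1 domain (77.3%, against 64.1% of all WT sites), and of the 26 KO sites 13 (50%, against 49.9%). In a young domain lay 7 WT sites (31.8%, against 35.7%) and 5 KO sites (19.2%, against 28.4%). The Foxa2 lists come from other animals than the domain lists, and none of them from old livers.

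The forkhead core was searched as TGTTTAC on both strands. It was present in 6 of 22 WT sites near collagen genes (27.3%, against 27.8% of all WT sites) and in 4 of 26 KO sites (15.4%, against 23.4%). With the variant TGTTTGC the numbers were 11 (50%, against 44.6%) and 6 (23.1%, against 38.7%). The sequences that follow, from the plus strand of GRCm38.p6, show 1 site called in both genotypes and the sites called in 1 genotype within 10 kb of a start site that represent each kind of match, with either word in capitals.
Col4a1, chr8:11148858-11149052: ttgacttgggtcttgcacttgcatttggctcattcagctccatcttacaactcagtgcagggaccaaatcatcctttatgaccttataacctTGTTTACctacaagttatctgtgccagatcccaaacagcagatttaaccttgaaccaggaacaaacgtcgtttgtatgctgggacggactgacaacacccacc
Col24a1, chr3:145294561-145294760: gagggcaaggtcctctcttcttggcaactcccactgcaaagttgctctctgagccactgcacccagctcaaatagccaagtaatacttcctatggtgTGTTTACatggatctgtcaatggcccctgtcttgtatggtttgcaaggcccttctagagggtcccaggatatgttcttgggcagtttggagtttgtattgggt
Col8a1, chr16:57749299-57749498: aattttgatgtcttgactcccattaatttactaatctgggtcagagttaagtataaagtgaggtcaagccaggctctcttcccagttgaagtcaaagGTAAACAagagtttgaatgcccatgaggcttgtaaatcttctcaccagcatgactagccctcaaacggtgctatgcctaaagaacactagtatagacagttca
Col26a1, chr5:136888474-136888593: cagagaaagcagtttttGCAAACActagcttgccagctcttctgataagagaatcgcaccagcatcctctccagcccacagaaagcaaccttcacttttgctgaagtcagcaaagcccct
Col1a2, chr6:4504309-4504508: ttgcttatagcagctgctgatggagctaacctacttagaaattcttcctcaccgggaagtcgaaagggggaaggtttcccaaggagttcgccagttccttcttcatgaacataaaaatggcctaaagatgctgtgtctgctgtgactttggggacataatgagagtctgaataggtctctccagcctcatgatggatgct
Each is a part of its site. The first sequence holds 195 of the 382 bases beyond the 3′ end of Col4a1 that were called in both genotypes, with 1 core. The second is from a WT site in an intron of Col24a1, whose midpoint lies 2.04 kb past the start site, inside H3K9me3 at both ages. The third is from a KO site in an intron of Col8a1, whose midpoint lies 5.63 kb past the start site, inside an old H3K9me3 region. The fourth holds the variant only and is from a WT site whose midpoint lies 5.61 kb before the start of Col26a1. The fifth is the middle of the WT site whose midpoint lies 0.405 kb before the start of Col1a2, and no match to either word was found in it. A match is a description of the letters and does not show which protein was bound.

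Sites differed between the genotypes at most genes that had any, as they did over all sites. Only 27.3% of all WT and 16.8% of all KO sites overlapped a site of the other genotype. Col25a1, a transmembrane collagen of neurons, had the most WT sites, 4, and none in KO livers. Of these, 3 lay in introns and 1 beyond the 3′ end, all inside lamin B1 in old livers. Etnppl had the closest start site for all but 1 of them, and Col25a1 is the longest of the collagen genes, at 468 kb. Col27a1 had 3 WT and 2 KO sites, and Col5a3 and Col8a2 each had 2 WT sites and none in KO livers. Col19a1 was within 50 kb of 2 WT sites and 1 KO site. Col14a1 had the most KO sites, 3, and none in WT livers, and Mtbp had the closest start site for 2 of them. Col4a1, Col4a4, Col6a2, Col11a1, Col18a1, Col26a1 and Col28a1 each had 2 in KO livers. At Col1a2 the WT site lay next to the start site and the KO site 5.36 kb before it, and these sites did not overlap. At Col8a1 the WT site lay beyond the 3′ end, 138 kb from the start, and the KO site in an intron near the start. A site near a collagen gene was not always nearest to it, since a collagen gene had the closest start site for 13 of 22 WT sites (59.1%) and 15 of 26 KO sites (57.7%). Of the 55 genes of collagen processing and binding, 16 had a site in WT livers (29.1%, against 32.0% of all genes), 21 in KO livers (38.2%, against 40.2%) and 4 in both genotypes (7.27%, against 20.2%), namely P4ha1, P4ha2, Bmp1 (the procollagen C-proteinase) and Pcolce (its enhancer).

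**Figure D5:**
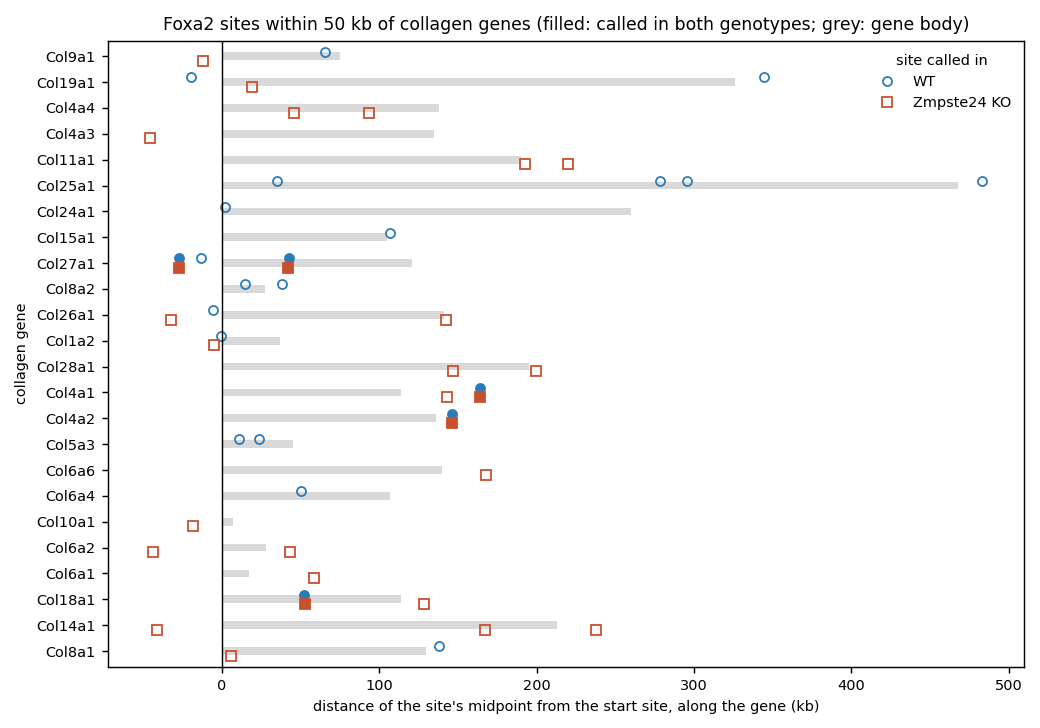
Distance of each Foxa2 site from the start site, along the gene (kb, horizontal axis), for the 24 collagen genes with a site within 50 kb of the body, in WT (blue circles) and Zmpste24 KO (orange squares) livers; grey bars are gene bodies and filled symbols overlap a site of the other genotype. Filled symbols are found at Col4a1, Col4a2, Col18a1 and Col27a1.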

How the data were processed

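Male C57BL/6 livers were profiled by ChIP-Seq. The authors aligned reads to mm10 with BWA, removed duplicates, merged replicates and called regions. Lamin B1 domains were called with Epic in windows of 10 kb and Foxa2 sites with PeakSeq. The caller of the H3K9me3 regions is not given in the methods, although the submitters' processing notes name SICER, and the deposited H3K9me3 lists differ in their number of regions from what the study states. The deposited values are genome positions per the file headers, with no signal, score or replicate value. They comprise 6 lists, matched to their conditions by name. H3K9me2 was not analysed here.

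The members, classes and gene lists were chosen with earlier results of these data known. A gene or start site was counted at an overlap of at least 1 bp, using the GENCODE M21 gene record, and coordinates start at 1. Genes were named when their start site differed between ages or lay in H3K9me3, when they were among the 5 largest differences in covered share of either sign, when they shared a locus, and when they had Foxa2 sites in both genotypes or the most sites. Sequence came from RefSeq GRCm38.p6, the same build. Overlap and word code was tested on simulated data, with 2000 of 2000 intervals and 500 of 500 sequences right. Python 3.11.15, pysam 0.24.0 and matplotlib 3.10.9 were used. Counts were set beside those of all protein-coding genes with no test, and alternatives to the overlap, distance, region length and gene set are in the closing section.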

Additional observations from a re-analysis of the deposited data

How the results depend on the processing

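Of 68 alternatives to the counts of collagen genes and sites, 54 stayed within 1.5 times the value reported. With at least 50% of the body covered, lamin B1 held 7 collagen genes in young livers, and with the whole body covered lamin B1 held 4 and H3K9me3 3. With domains of at most 1 Mb, added after the data were seen, lamin B1 touched 11 bodies and held 10 start sites in old livers. Foxa2 sites were near 8 WT and 7 KO genes for the body alone, 11 KO genes at 10 kb, 9 WT and 11 KO genes within 50 kb of the start site, and 9 WT genes with wide sites only. Reciprocal overlap of 50% left 3 sites in both genotypes. The forkhead core was found in 17 sites with the G variant and in 4 near the midpoint, against 10. Old livers had more collagen genes than young ones in every setting for start sites and for H3K9me3, and in 7 of 8 for lamin B1 over bodies, where domains of at most 1 Mb gave 11 against 12. KO livers had more than WT livers in 7 of 9. Beside genes of similar length, the shares of all genes moved as given in the report. No paired analysis was possible because the lists hold merged replicates, and for the same reason no replicate could be left out and no stricter score set.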
